A study of Mus musculus with 8 samples.

Results

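The genes described here encode the machinery of oxidative phosphorylation in mouse aortic endothelium after endothelial deletion of Mef2c, a MADS-box transcription factor. They were chosen by name alone, as probe sets whose single platform symbol begins with Ndufa, Ndufb, Ndufc, Ndufs, Ndufv, Uqcr, Cox4i, Cox5, Cox6, Cox7, Cox8 or Atp5, or is Sdha, Sdhb, Sdhc, Sdhd or Cyc1, without pseudogene symbols. The rule took in 96 probe sets of 92 genes, out of 30063 genes with a named probe set. By symbol, 83 fall to the 5 complexes, 82 of them subunit genes and 1, Atp5l2, a pseudogene in RefSeq, and 9 share the symbol pattern without being subunits. A filter on the mean level over all arrays, at 6.14 on the log2 scale, left 89 of the 92 genes in the test.

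RNA came from 4 aortas with Mef2c deleted in endothelium (EKO) and 4 control aortas. All 8 mice were female and carried Cdh5-CreERT2 with both Mef2c alleles floxed. EKO mice received tamoxifen in sunflower seed oil with 10% ethanol on 5 days from 10 weeks of age, and their Control littermates received the oil and ethanol alone. Aortas were taken 14 days after the first dose. The Cre is driven by Cdh5, an endothelial gene, and is active only after tamoxifen. Effects of the deletion and of tamoxifen itself therefore cannot be told apart. Lysis reagent was flushed through the lumen of the thoracic aorta, and 5 ng of RNA from a single aorta was put on each array.

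Oxidative phosphorylation takes place at the inner mitochondrial membrane. Complex I takes electrons from NADH and complex II takes them from succinate. Complex III passes them to cytochrome c, and complex IV hands them to oxygen. The proton gradient built up on the way drives ATP synthase. Endothelial cells make much of their ATP by glycolysis, whereas brown adipocytes, which surround the thoracic aorta, are packed with mitochondria and use the uncoupling protein Ucp1 to release the gradient as heat. Some complex IV subunits have tissue isoforms, among them Cox7a1 and Cox8b, which are used in heart, skeletal muscle and brown fat.

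Of 11 tested endothelial markers, 9 lay above the medians of the array's negative control probes, among them Cdh5, Pecam1 and Tek. Kdr averaged 6.86 in EKO and 6.75 in Control arrays and Robo4 averaged 6.34 in EKO and 6.17 in Control arrays, both genes below those medians. The mean of the 11 was 13.08 ± 0.11 in EKO and 13.10 ± 0.13 in Control arrays (SD, n = 4 each). Markers of other cells were also present, but not all lay above the negative controls. Below the negative control medians were 6 of 6 tested striated muscle markers and 5 of 8 of smooth muscle. So were 4 of 8 of leukocytes and 3 of 7 of fibroblasts. Of brown adipocyte markers 1 of 8 was, and of white or any adipocyte 0 of 8. The mean of 8 tested brown adipocyte markers was 10.00, 7.47, 8.52 and 9.34 in EKO arrays 1 to 4, and 8.70, 7.98, 10.23 and 9.81 in Control arrays 1 to 4. Of the 12 markers listed, 10 had a probe set with 1 symbol and 8 passed the level filter. Ucp1 alone was at 15.78, 11.14, 13.45 and 15.20 in EKO arrays and at 14.38, 11.96, 16.73 and 16.24 in Control arrays. The median difference, EKO minus Control, was -0.46 for these 8 markers, -0.43 for 8 of white or any adipocyte and -0.41 for 7 of fibroblasts. It was 0.03 for 8 of smooth muscle, 0.07 for 6 of striated muscle and 0.20 for 8 of leukocytes, and the erythroid gene Alas2 had -1.02. Mef2c averaged 9.75 ± 0.20 in EKO and 9.77 ± 0.11 in Control arrays (SD, n = 4 each), a difference of -0.03. Its probe set summarises the whole transcript, so it need not report the loss of the floxed part. The labels give no batch. In such bulk samples, fewer cells of a type and less RNA per cell cannot be told apart.

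The promoters of 4 subunits are shown because these 4 genes form the isoform pairs with the widest contrast between arrays, Cox7a1 with Cox7a2 and Cox8b with Cox8a. Each is the 250 bases before the RefSeq start of the gene in build GRCm38.p6, 5′ to 3′ on the gene's strand, and capitals mark CpG dinucleotides. The regions are chr7:30183921-30184170 on the plus strand for Cox7a1, chr9:79759854-79760103 on the minus strand for Cox7a2, chr7:140900447-140900696 on the minus strand for Cox8b, and chr19:7217617-7217866 on the minus strand for Cox8a.
Cox7a1: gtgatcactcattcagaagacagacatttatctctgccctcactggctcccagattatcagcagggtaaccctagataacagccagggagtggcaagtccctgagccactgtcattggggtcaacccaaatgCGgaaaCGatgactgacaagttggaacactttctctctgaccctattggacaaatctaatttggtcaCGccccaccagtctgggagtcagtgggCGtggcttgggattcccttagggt
Cox7a2: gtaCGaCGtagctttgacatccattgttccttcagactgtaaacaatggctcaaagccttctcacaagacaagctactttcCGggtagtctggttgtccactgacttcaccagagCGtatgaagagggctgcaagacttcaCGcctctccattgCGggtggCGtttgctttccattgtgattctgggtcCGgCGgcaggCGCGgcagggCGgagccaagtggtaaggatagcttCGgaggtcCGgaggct
Cox8b: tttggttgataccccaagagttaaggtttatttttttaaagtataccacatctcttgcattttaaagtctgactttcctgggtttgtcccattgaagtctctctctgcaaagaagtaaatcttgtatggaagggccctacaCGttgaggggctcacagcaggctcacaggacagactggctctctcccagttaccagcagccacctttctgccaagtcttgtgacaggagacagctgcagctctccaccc
Cox8a: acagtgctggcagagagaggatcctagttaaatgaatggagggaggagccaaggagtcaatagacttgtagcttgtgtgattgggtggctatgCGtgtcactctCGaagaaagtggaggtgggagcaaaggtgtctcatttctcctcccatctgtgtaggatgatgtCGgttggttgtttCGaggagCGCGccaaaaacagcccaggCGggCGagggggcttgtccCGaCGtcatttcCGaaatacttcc
Cox7a1 and Cox8b, the isoforms of muscle and brown fat, held 4 and 1 CpG dinucleotides. Cox7a2 and Cox8a, the isoforms found in most tissues, held 14 and 11. The median was 14 over the 74 members with a RefSeq promoter and 6 over all 27025 promoters. A count of 4 or fewer was found in 44.5% of all promoters and in 4 of the 74 members, Cox7a1, Cox8b, Ndufb4b and Ndufc2.

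Short motifs of regulators of mitochondrial genes were searched in the same windows, on both strands. The NRF1 motif, read by nuclear respiratory factor 1, was in 11 of 74 member promoters (14.9%) and in 3.87% of all. The ETS motif CCGGAAG, read by factors such as GABPA, was in 12 (16.2%) and in 7.07% of all. The YY1 motif AANATGGC was in 5 (6.76%) and 3.91% of all, and the oestrogen-related receptor motif TCAAGGTCA in 1 (1.35%) and 0.366% of all. The MEF2 motif was in 0 of 74 member promoters and 3.03% of all. Sdhd, the membrane anchor of complex II, is shown as one of 3 members with both an NRF1 and an ETS match, the others being Atp5h and Cox6a1. Both motifs were in 0.577% of all promoters. Its window is chr9:50603850-50604099 on the minus strand, and capitals mark the matches.
Sdhd: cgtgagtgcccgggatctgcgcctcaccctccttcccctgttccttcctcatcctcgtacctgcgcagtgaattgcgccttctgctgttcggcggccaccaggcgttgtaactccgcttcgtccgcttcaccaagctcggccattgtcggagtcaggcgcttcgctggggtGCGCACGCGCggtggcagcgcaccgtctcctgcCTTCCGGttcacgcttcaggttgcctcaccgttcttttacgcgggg
The ETS letters appear there as their reverse complement. A match is a description of letters and not of binding. The NRF1 and ETS motifs contain CpG, and the MEF2 motif is mostly A and T. Member promoters held a median of 14 CpG dinucleotides against 6 over all promoters. The shares of promoters with a match were not adjusted for base composition.

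No member differed between EKO and Control arrays after adjustment over all 16232 genes. In limma's test 0 of 89 members had an adjusted p under 0.05, the smallest being 0.539, against 0% of all genes. At an unadjusted p under 0.05 there were 4 members, 2 higher and 2 lower in EKO. The 2 higher were Cox6a2 and Cox4i2, both below the negative controls. The 2 lower were Ndufaf3 and Ndufaf7, which are assembly factors, so 0 of the 80 tested genes of the complexes were lower at that level. Of all genes, 8.93% passed that level, 5.42% higher and 3.51% lower. With the variance of each gene taken alone, 0 members passed after adjustment. Without adjustment 5 of 89 did, against 1469 of 16232 genes. What the members shared was direction: 84 of 89 were lower in EKO, against 55.1% of all genes and 66.5% of the 11219 protein-coding genes tested. The median difference, EKO minus Control, was -0.19 for the members, or 1.14-fold, and -0.02 for all genes. Members moved together from array to array, so their directions are not independent counts. In 75 of 89 members the difference was smaller than the member's own SD within groups. That count is not set beside a share of all genes, so it does not mark the members out. The groups did not overlap in 1 member lower in EKO (2.67% of all genes) and 2 members higher in EKO (3.41% of all genes).

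The size of that shift rested on single arrays. Member means were 11.03, 10.43, 10.60 and 10.85 in EKO arrays, and 10.61, 10.60, 11.32 and 11.18 in Control arrays. The groups overlapped, with Control arrays 3 and 4 at the top and EKO array 2 at the bottom. Control 3 was the highest array for 73 of 89 members (82.0%), against 13.2% of all genes. EKO 2 was the lowest array for 55 of 89, against 22.6% of all genes. The median difference was -0.07 without Control 3, with 67 of 89 members lower, against 53.6% of all genes. It was -0.10 without Control 4 and -0.10 without EKO 2. It was -0.30 without EKO 1, -0.29 without Control 1 and -0.29 without Control 2. Control arrays 3 and 4 also carried the highest brown adipocyte marker means of their group, and EKO 2 the lowest of all arrays. White or any adipocyte markers averaged 8.06 in EKO 2, against 10.24 and 9.99 in Control 3 and 4, and fibroblast markers 7.999 in EKO 2, against 8.92 and 8.98 in Control 3 and 4. These were again the lowest array and the highest arrays of the control group. Which of these cell types, if any, had a part in the shift was not tested beyond the covariate fits given further on.

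**Figure D1:**
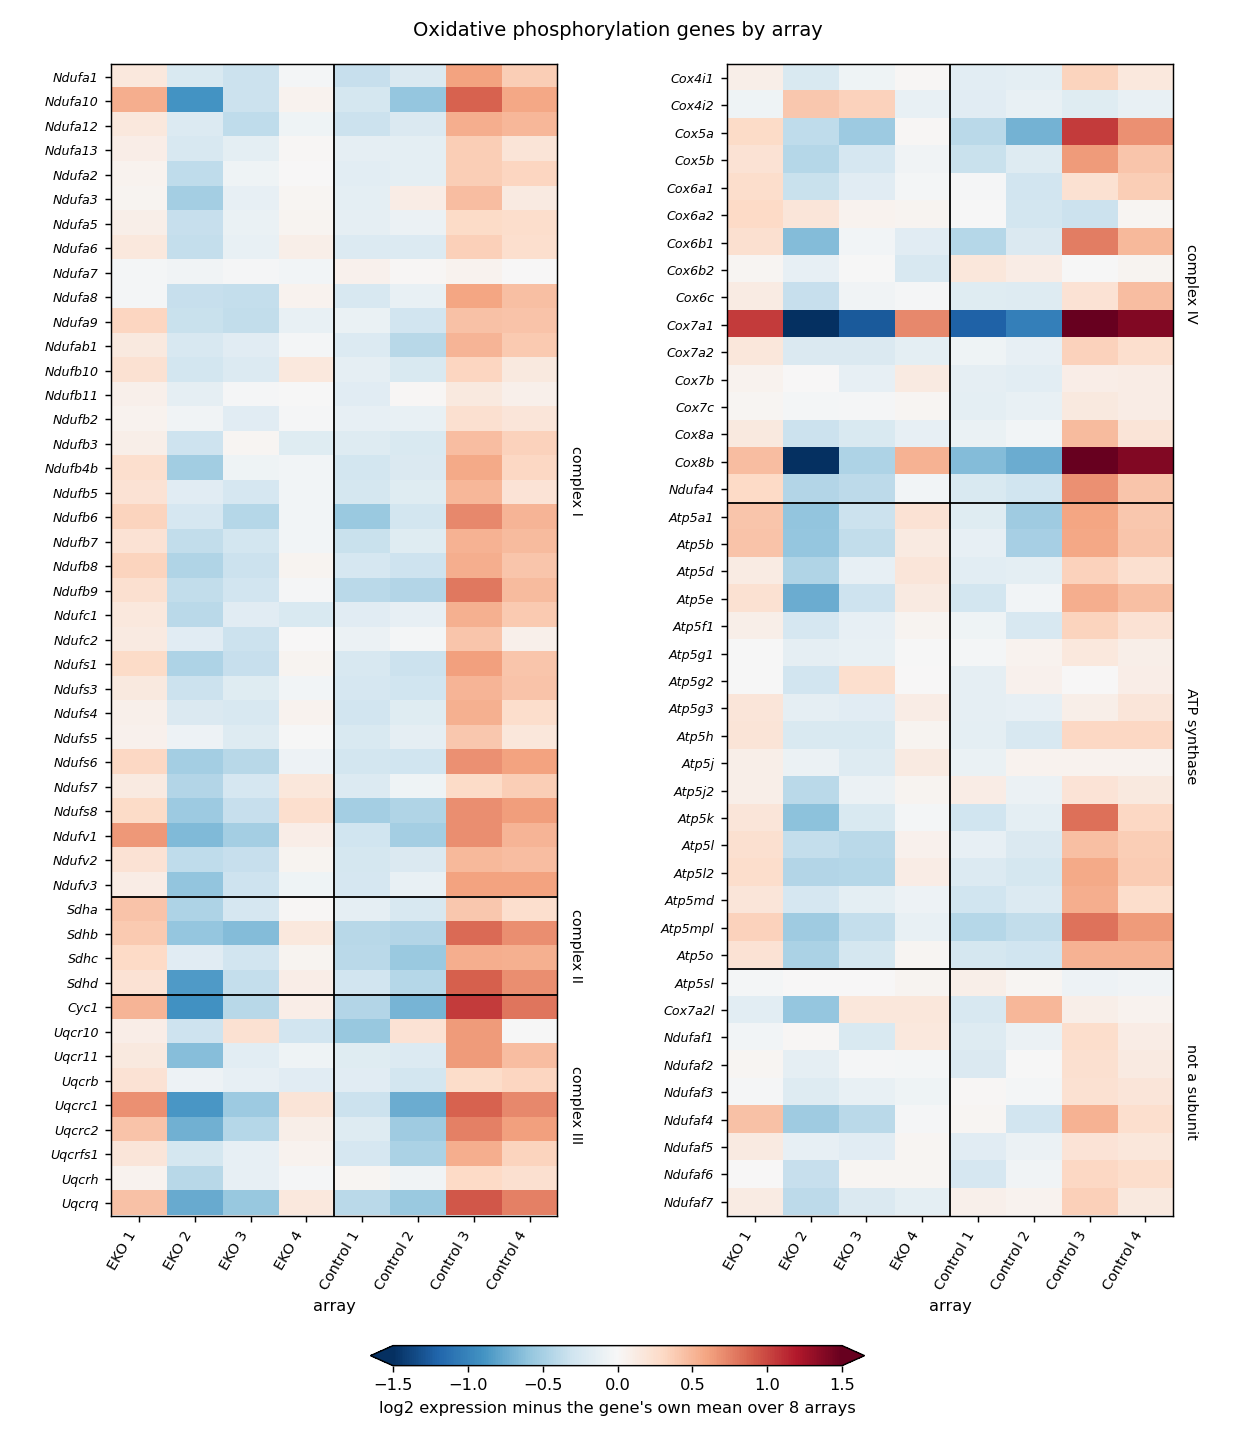
Each row is a tested member, grouped by complex, and each column an array, EKO arrays left of Control arrays. Colour gives the log2 level minus that member's mean over the 8 arrays, with colours clipped at the ends of the scale, and the column of Control 3 is the highest for 73 of 89 members.

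Complex I, the NADH dehydrogenase, was lower in EKO in 34 of 34 tested subunits, with a median difference of -0.19 and a range of -0.43 to -0.04. Ndufs1, the largest core subunit, was at 9.84, 9.10, 9.22 and 9.60 in EKO arrays and at 9.32, 9.24, 10.18 and 9.97 in Control arrays. The groups overlapped, and the difference was -0.24 (SE 0.25, limma adjusted p = 0.768). Ndufv1, which binds NADH, was at 12.49, 11.17, 11.33 and 11.94 in EKO arrays and at 11.54, 11.33, 12.54 and 12.35 in Control arrays. EKO 1 stood beside the 2 highest Control arrays, and the difference was -0.21 (SE 0.36, limma adjusted p = 0.861).

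Ndufv3, an accessory subunit of the NADH-binding module, had the smallest p of complex I. It was at 12.13, 11.43, 11.71 and 11.96 in EKO arrays and at 11.77, 11.91, 12.62 and 12.63 in Control arrays, a difference of -0.43 (SE 0.24, limma adjusted p = 0.614). Ndufa3 and Ndufc1, both accessory subunits, had differences of -0.28 and -0.32. The probe set of Ndufc1 lay below the median of the array's negative control probes on average, at 7.30. The one member whose EKO arrays all lay below its Control arrays was Ndufa7, another accessory subunit, named here after its values were seen. It spanned 9.46 to 9.49 in EKO and 9.52 to 9.57 in Control arrays, a difference of -0.07 (SE 0.06, limma adjusted p = 0.688).

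Complex II, the succinate dehydrogenase shared with the citric acid cycle, was lower in 4 of 4 subunits, with a median difference of -0.24. Sdhd was at 9.79, 8.73, 9.22 and 9.67 in EKO arrays and at 9.29, 9.15, 10.47 and 10.27 in Control arrays, a difference of -0.44 (SE 0.35, limma adjusted p = 0.693). Sdhb, the iron-sulphur subunit, was at 11.58, 10.62, 10.54 and 11.35 in EKO arrays and at 10.77, 10.75, 12.04 and 11.88 in Control arrays. Its difference was -0.34 (SE 0.37, limma adjusted p = 0.775). Sdha, the flavoprotein that oxidises succinate, had a difference of -0.13 (95% interval -0.62 to 0.35). In all 3 of these genes the groups overlapped.

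Complex III was lower in 9 of 9 subunits, with a median difference of -0.27. That median was between -0.49 and -0.07 with 1 array left out and -0.12 with brown adipocyte markers as a covariate. Cyc1, the cytochrome c1 subunit, was at 12.98, 11.56, 12.05 and 12.58 in EKO arrays and at 12.03, 11.78, 13.52 and 13.28 in Control arrays. Its difference was -0.36 (SE 0.45, limma adjusted p = 0.806). Cyc1, Uqcrc1 and Uqcrq were, after Cox7a1 and Cox8b, the members with the largest SD within groups, at 0.759, 0.752 and 0.679. Uqcrh, the hinge protein, varied less, with an SD of 0.186, and was at 11.99, 11.53, 11.82 and 11.92 in EKO arrays against 11.97, 11.89, 12.24 and 12.19 in Control arrays. Its difference was -0.26 (SE 0.12, limma adjusted p = 0.577). Uqcr11 and Uqcrc2 had differences of -0.36 and -0.32. Uqcrfs1, the Rieske iron-sulphur protein, had one of -0.08 (95% interval -0.59 to 0.43).

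Complex IV, cytochrome c oxidase, was the least uniform, with 12 of 16 tested subunits lower in EKO, 4 higher and a median difference of -0.18. Cox4i1 and Cox5a, subunits found in most tissues, had differences of -0.09 (SE 0.13) and -0.31 (SE 0.39), with limma adjusted p of 0.827 and 0.804. The 4 higher were Cox7b, at a difference of 0.04, Cox7c, at 0.003, and Cox6a2 and Cox4i2, which lay below the negative controls. Cox7c is named after its values were seen. The muscle isoform Cox6a2 was at 6.46, 6.34, 6.22 and 6.20 in EKO arrays and at 6.16, 5.89, 5.85 and 6.19 in Control arrays. Cox4i2, an isoform known from lung and other oxygen-sensing tissue, was at 6.46, 6.93, 6.88 and 6.42 in EKO arrays and at 6.36, 6.42, 6.35 and 6.42 in Control arrays. In both genes every EKO array was above every Control array, in Cox4i2 by a margin lost to rounding.

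The differences were 0.28 for Cox6a2 (SE 0.11, limma adjusted p = 0.539) and 0.29 for Cox4i2 (SE 0.13, limma adjusted p = 0.558). These 2 were the tested members nearest above the level filter, with means of 6.16 and 6.53. Both lay below the median of the negative control probes, which was 7.34 to 7.45 over the arrays. The 3 members under the filter were also of complex IV: the testis isoforms Cox7b2 and Cox8c, at 5.34 and 5.97, and Ndufa4l2, at 4.30. The paralogue Ndufa4, a subunit of complex IV despite its name, had a difference of -0.28 (SE 0.25, limma adjusted p = 0.722). Cox6b2, the testis isoform of Cox6b1, had a difference of -0.16, at a mean of 7.38 that lay within the negative control medians, and Cox6b1 one of -0.31.

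ATP synthase was lower in 17 of 17 genes, with a median difference of -0.15. They include the pseudogene Atp5l2, at -0.25. Atp5a1, the alpha subunit of the catalytic head, was at 13.52, 12.52, 12.79 and 13.32 in EKO arrays and at 12.92, 12.57, 13.69 and 13.51 in Control arrays. Its difference was -0.14 (SE 0.30, limma adjusted p = 0.891). Atp5b, the catalytic beta subunit, had a difference of -0.19 (SE 0.29, limma adjusted p = 0.839). The 3 genes for the c subunit of the membrane ring, which encode the same mature protein, had differences of -0.13 for Atp5g1, -0.01 for Atp5g2 and -0.01 for Atp5g3. Atp5e, the epsilon subunit, and Atp5j2, a membrane subunit, had differences of -0.35 and -0.18.

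**Figure D2:**
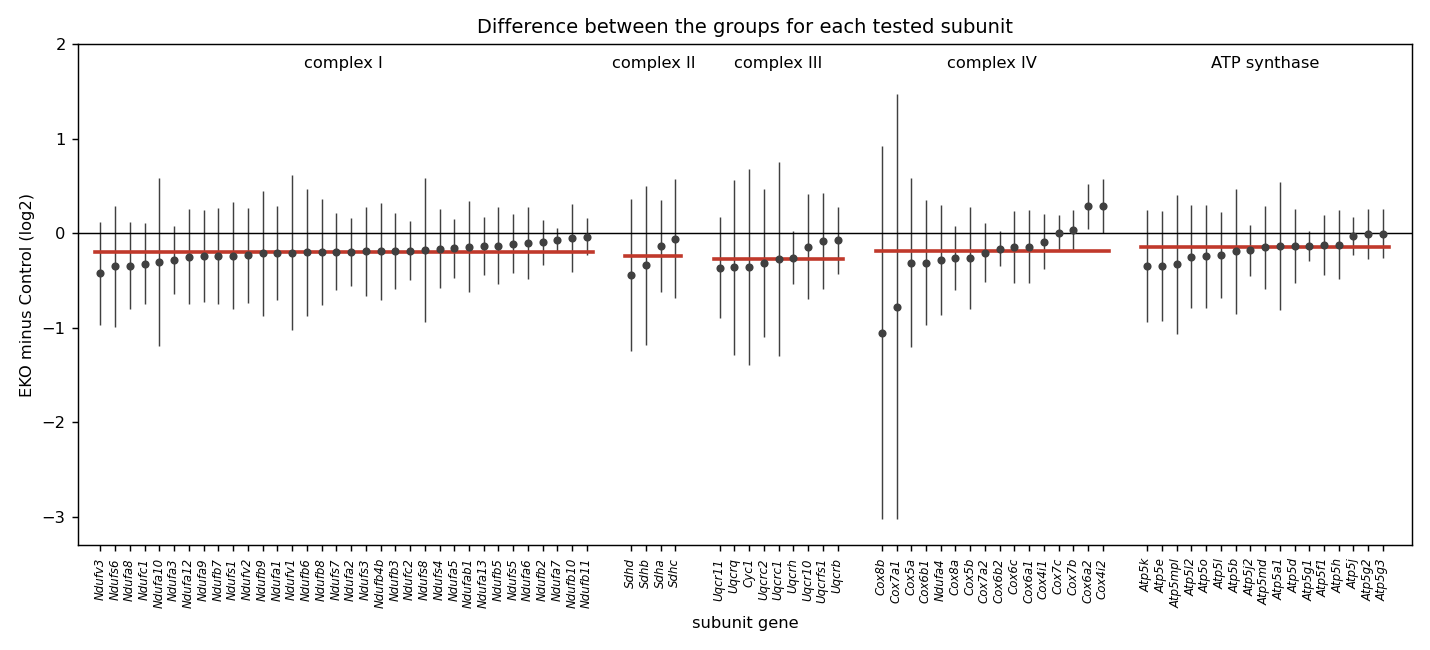
Points are the differences of the 80 tested genes of the complexes, Atp5l2 included, EKO minus Control on the log2 scale, with 95% intervals, and red bars are the medians of each complex. Medians lie between -0.27 and -0.15, and every interval except those of Cox6a2 and Cox4i2 spans 0.

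The 9 genes that are not subunits were 7 Ndufaf assembly factors of complex I, Cox7a2l, which joins complexes III and IV into supercomplexes, and Atp5sl, now named Dmac2. Of these, 8 were lower in EKO, and the median difference was -0.14. Ndufaf7, a methyltransferase that acts on complex I, was at 8.75, 8.23, 8.42 and 8.48 in EKO arrays and at 8.70, 8.68, 8.98 and 8.78 in Control arrays. Its difference was -0.32 (SE 0.12, limma adjusted p = 0.539). Ndufaf3 had a difference of -0.20 (SE 0.08, limma adjusted p = 0.55).

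Cox7a1 and Cox8b varied most between arrays of one group. Cox7a1 was at 13.33, 10.21, 11.02 and 13.01 in EKO arrays and at 11.07, 11.26, 14.69 and 13.68 in Control arrays, a span of 22.2-fold. Cox8b was at 12.24, 9.16, 11.32 and 12.30 in EKO arrays and at 11.12, 11.03, 13.89 and 13.17 in Control arrays, a span of 26.6-fold. Their differences were -0.78 (SE 0.98, limma adjusted p = 0.806) and -1.05 (SE 0.87, limma adjusted p = 0.7). They were the largest decreases among the members. The groups overlapped in both genes.

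Their paralogues were steadier. Cox7a2 was at 15.77, 15.39, 15.38 and 15.45 in EKO arrays and at 15.53, 15.48, 15.95 and 15.85 in Control arrays, a span of 1.48-fold. Cox8a was at 13.47, 13.01, 13.10 and 13.20 in EKO arrays and at 13.22, 13.29, 13.80 and 13.51 in Control arrays, a span of 1.74-fold. Their differences were -0.20 and -0.26, with limma adjusted p of 0.639 and 0.618. The third pair with a muscle isoform, Cox6a2 with Cox6a1, did not show this contrast. Cox6a2, which lay near the filter, spanned 1.53-fold and Cox6a1 spanned 1.63-fold.

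**Figure D3:**
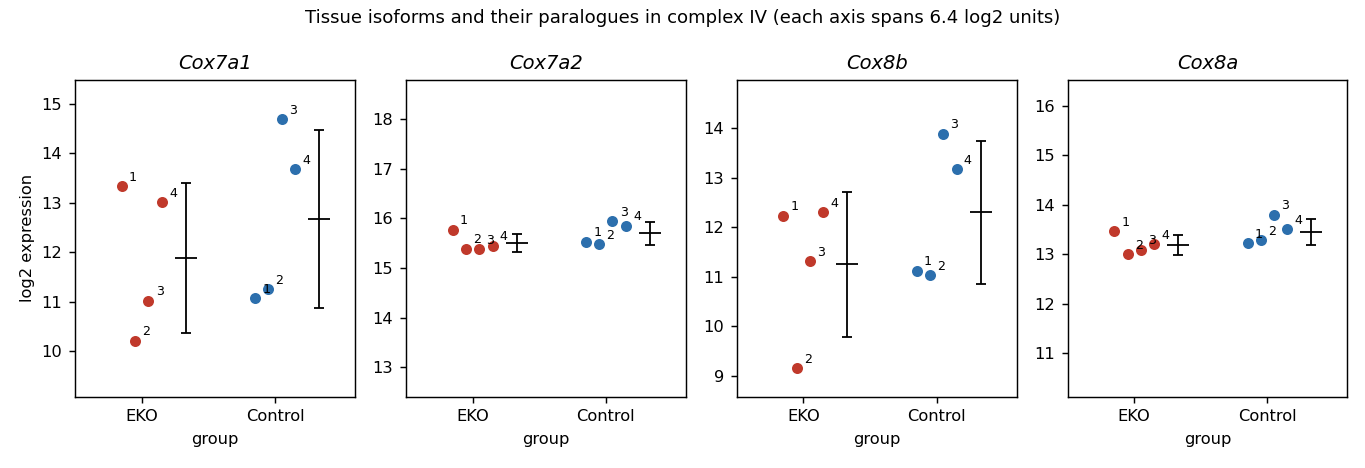
Points are log2 levels of Cox7a1, Cox7a2, Cox8b and Cox8a in each numbered array, EKO left of Control, and bars are the mean ± SD of each group (n = 4), on axes of equal span. Cox7a1 and Cox8b span 22.2-fold and 26.6-fold over the 8 arrays, and Cox7a2 and Cox8a span 1.48-fold and 1.74-fold.

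Across arrays the members followed the brown adipocyte markers. With the group in the model, each gene was given a slope, its change in log2 level per log2 unit of the mean of the 8 markers. The slope was positive in 86 of 89 members, against 54.1% of all genes. It passed limma's adjusted p of 0.05 in 44 members as a positive slope, against 2.86% of all genes, and in 0 as a negative one, against 0.327%. The median slope was 0.25 for the members and 0.01 for all genes. Slopes were positive within EKO arrays alone and within Control arrays alone in 85 members. Without EKO 2 and Control 3, the arrays farthest from the median marker level, 82 were positive and the median was 0.28. In that fit 15 passed, against 2.11% of all genes. The counts of 85 and 82 positive slopes have no share of all genes beside them. Marker and member levels come from the same arrays and share their normalization. White or any adipocyte markers took a similar course over the arrays. Their means were 9.90, 8.06, 8.65 and 9.27 in EKO arrays, and 8.89, 8.36, 10.24 and 9.99 in Control arrays. Which of these marker lists the members followed more closely was not tested.

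Complex II had the steepest median slope of the 5 complexes and complex IV the shallowest. Medians were 0.27 for complex I, 0.45 for complex II, 0.35 for complex III, 0.21 for complex IV and 0.25 for ATP synthase. That of complex IV includes Cox4i2, Cox6a2 and Cox6b2, with slopes of -0.12, 0.02 and -0.02, which lay below or within the negative control medians. The slope passed in 17 of 34, 3 of 4, 7 of 9, 5 of 16 and 11 of 17 genes, Atp5l2 included, and in 1 of the 9 genes that are not subunits. Cox7a1 had a slope of 1.49 (95% interval 1.07 to 1.90) and Cox8b one of 1.31 (0.95 to 1.67). Cox7a2 had a slope of 0.18 (0.07 to 0.28) and Cox8a one of 0.20 (0.09 to 0.31), and neither passed. The intervals of each pair did not overlap. Ndufa10, an accessory subunit of complex I chosen after its values were seen, had 0.61 (0.51 to 0.70).

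**Figure D4:**
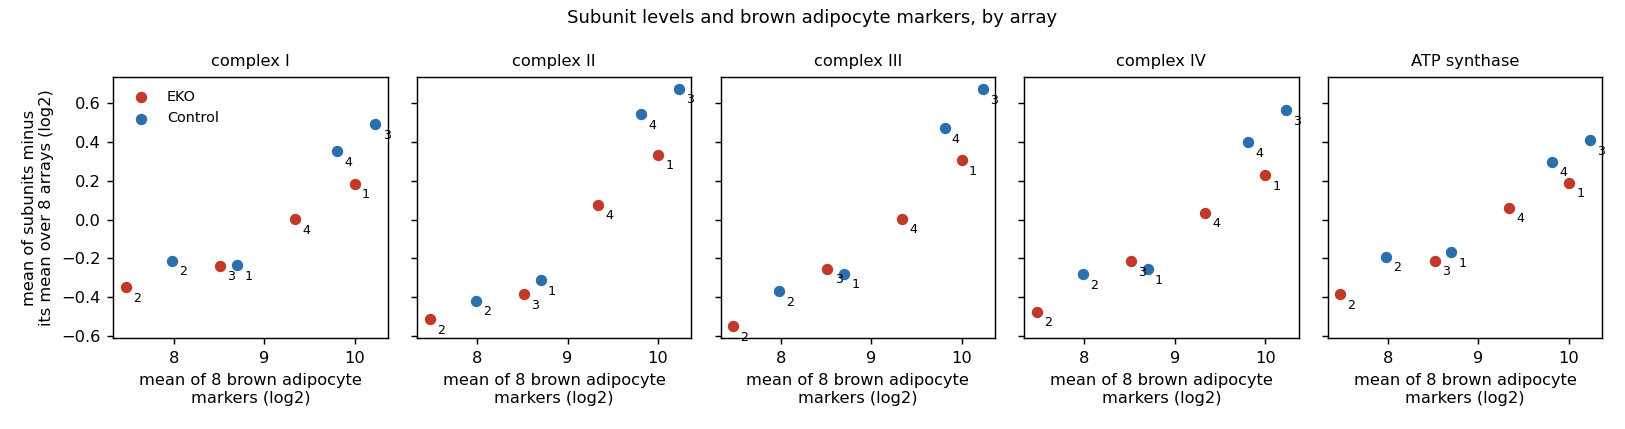
Points give the mean log2 level of each complex's tested subunits in an array, minus that complex's mean over the 8 arrays. They are plotted against the mean log2 level of 8 brown adipocyte markers in that array. EKO arrays span marker means of 7.47 to 10.00 and Control arrays 7.98 to 10.23, and each complex has its highest level in Control 3 and is higher in the 4 arrays with the highest markers than in the other 4.

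The group difference was smaller with adipocyte markers in the model. With brown adipocyte markers as a covariate the median difference of the members was -0.09, and 79 of 89 were lower, against 53.9% of all genes. With markers of white or any adipocyte it was -0.04, and 68 of 89 were lower, against 52.9% of all genes. With smooth muscle markers, 5 of 8 of which lay below the negative control medians, it was -0.33. The differences of Cox7a1 and Cox8b were -0.26 and -0.59 with the brown adipocyte covariate. No member passed limma's adjusted threshold in any of these fits.

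Other genes of mitochondrial metabolism were counted from fixed lists, again with 0 genes past limma's adjusted threshold. Of all genes, 55.1% were lower in EKO and 2.86% had a positive slope that passed. The citric acid cycle was lower in 12 of 12 tested genes (median -0.28) and mitochondrial beta oxidation in 14 of 15 (median -0.31), and none of either had an unadjusted p under 0.05. Their slopes on the brown adipocyte markers passed in 12 of 12 and 14 of 15, with medians of 0.56 and 0.77, above the 0.25 of the members. Assembly factors outside the members were lower in 24 of 31 (median -0.10, slope 0.10, passing in 4). Mitochondrial ribosomal proteins were lower in 63 of 71 (median -0.09, slope 0.11, passing in 6). The unadjusted p was under 0.05, with a lower level in EKO, in 1 of the 31 (3.23%) and 3 of the 71 (4.23%), near the 3.51% of all genes. Carriers and uncoupling proteins were lower in 10 of 11 (median -0.20), 1 of them at an unadjusted p under 0.05: Pdss2, a coenzyme Q synthesis enzyme, at a difference of -0.20. Among the marker lists, white or any adipocyte had a median slope of 0.76, with 7 of 8 passing, and fibroblast one of 0.29, positive in 7 of 7 with 0 passing. Endothelial markers had a median slope of 0.02, with 0 of 11 passing. Medians were 0.07 for smooth muscle, 0.09 for striated muscle and 0.05 for leukocyte, with 0 of 8, 0 of 6 and 1 of 8 passing. In these last lists 5 of 8, 6 of 6 and 4 of 8 markers lay below the negative control medians. So did 3 of 7 of fibroblasts, which limits what such slopes can show. The 13 subunits encoded in the mitochondrial genome were not analysed here.

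**Figure D5:**
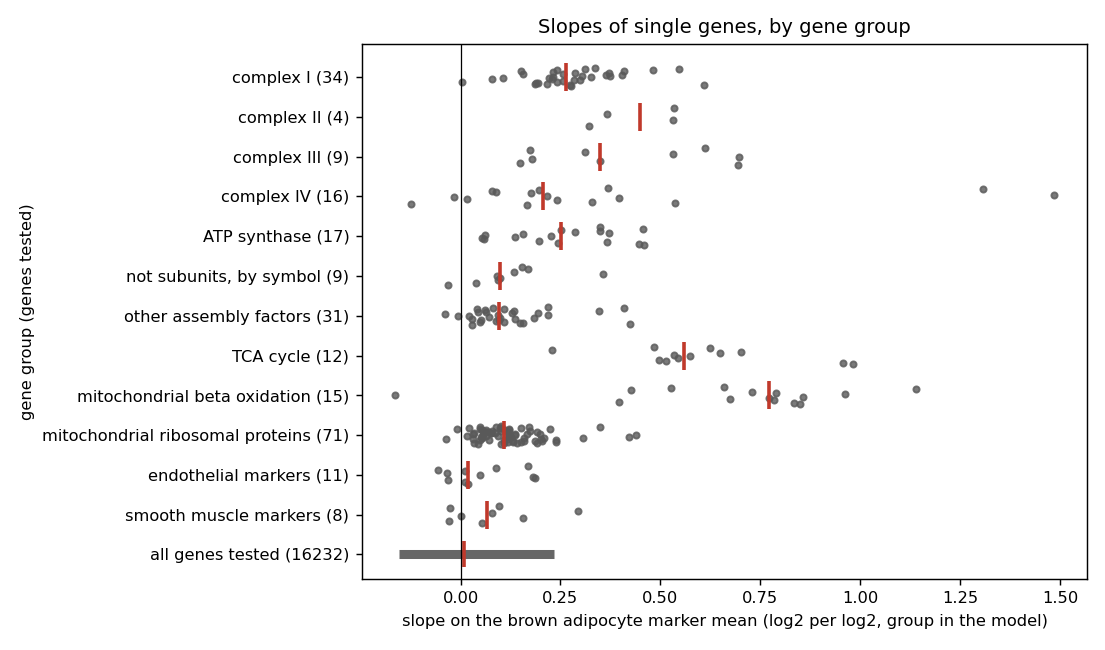
Slopes on the mean of 8 brown adipocyte markers, in log2 per log2 unit, for the members by complex and for other gene lists. Points are genes, red ticks are medians, and the grey bar of all tested genes runs over its percentiles 5 to 95, -0.15 to 0.24.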

How the data were processed

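Levels are log2 expression values per transcript cluster of the Affymetrix Mouse Transcriptome Array 1.0, which the authors deposited after SST-RMA processing. Per the labels, the software was Expression Console. RMA methods in general quantile-normalize the arrays, which evens out their brightness; the settings used are not recorded in the labels. The software version and the genome build of the array values are not given in the sources used here. Groups come from the sample titles.

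Of 72688 probe sets, 30604 had 1 platform symbol and 2146 had several, which were not used. Symbols were updated through RefSeq (30602 matched). For a symbol with several probe sets, the one with the highest mean over 8 arrays was used. A minimum mean of 6.14, the probe sets' own median, left 16232 genes, tested with limma 3.58.1 in R 4.3.3 (lmFit, eBayes, no covariate) and Benjamini-Hochberg adjustment over all of them. Slopes are the covariate's coefficient in the fit with brown adipocyte markers. The number of arrays limits the precision.

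Members, lists and tests were chosen with earlier results of these data known. Named members are core subunits, tissue isoforms and paralogues, the 3 with the smallest p in each complex, and the 5 with the largest SD within groups. Alternatives covered the level filter, probe sets, normalization, variance model, covariates, array weights, a block for the replicate number and leaving out each array. Replicate numbers were not used to pair the samples in the main fit. The correlations of same-numbered deviations from the group means were -0.16, 0.21, -0.24 and 0.13. Those of differently numbered arrays ran from -0.40 to 0.46, so these values cannot decide whether samples were paired.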

Additional observations from a re-analysis of the deposited data

Results flagged for a closer look

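In 1 of 86 groups of 4 arrays examined, an array stood far from the other arrays of its group. Cox7b2, the testis isoform of a complex IV subunit, was at 5.638 in EKO array 1, with a gap to the next EKO array of 0.841 of the group's range. The gene was under the level filter and below the negative control probes. Chance alone gives such a gap in about 1 of 20 groups.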

How the results depend on the processing

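In every alternative run, 0 members and 0 genes had a limma adjusted p under 0.05, and the median difference of the members stayed below 0. With the replicate number as a block the median was -0.19. In that run 3 of 89 members had an unadjusted p under 0.05, against 1259 of 16232 genes. Members at that unadjusted p numbered 4 of 89 as reported, against 1449 of 16232 genes. With the brown adipocyte covariate they numbered 7 of 89, against 1524 of 16232 genes. A level filter at the 75th percentile gave 1 of 77 members, against 808 of 8800 genes. Quantile normalization gave 1 of 89 members, against 1342 of 16235 genes. Leaving out each array in turn gave 0 to 6 members, against 969 to 2002 genes. The difference changed sign in 18 of 89 members with the white adipocyte covariate, 7 with the brown one and 1 with the smooth muscle one. It did so in 3 with array weights, 3 with centring and 1 with quantile normalization. Differences that changed with the white adipocyte covariate were not all small: Uqcrc1 had -0.27 and Ndufv1 -0.21 without it. With 1 array left out, 23 changed sign at least once, 19 of them without Control 3. Values follow for the named members. With the white adipocyte covariate they were 0.0706 for Ndufv1, 0.0266 for Sdha, 0.0812 for Uqcrfs1, 0.0935 for Atp5a1, 0.0342 for Atp5b, 0.00966 for Atp5g2, 0.0641 for Atp5g3 and 0.0832 for Uqcrc1. With the brown adipocyte covariate they were 0.0284 for Uqcrfs1, 0.0233 for Atp5a1, 0.00601 for Atp5g2 and 0.0417 for Atp5g3. Array weights gave -0.0025 for Cox7b and 0.0137 for Atp5g2, centring gave 0.0228 for Atp5g2 and 0.0295 for Atp5g3, and quantile normalization gave 0.00659 for Atp5g3. With each array left out, ranges that crossed 0 were -0.25 to 0.0897 for Uqcrfs1, -0.16 to 0.00425 for Cox4i1, -0.34 to 0.0362 for Atp5a1, -0.0108 to 0.0822 for Cox7b, -0.0994 to 0.0805 for Atp5g2 and -0.0656 to 0.0557 for Atp5g3. The cause was not tested. Probe sets near the negative controls limit what Cox6a2, Cox4i2, Cox6b2 and Ndufc1 can show.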

Other observations

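Among 13 tested transcriptional regulators of mitochondrial genes, 13 were lower in EKO, against 55.1% of all genes and 66.5% of protein-coding genes. The median difference was -0.08, with 0 at limma's adjusted threshold. Differences ran from -0.45 to -0.0007, the last that of Yy1. With the brown adipocyte covariate 10 of the 13 were lower. Ppargc1a, a coactivator of mitochondrial biogenesis that is also one of the brown adipocyte markers, had a difference of -0.45. Nrip1, a corepressor of oxidative genes, had a difference of -0.37.

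The probe sets used for Atp5l and Atp5g2 carry identifiers that name chromosomes 5 and 7, whereas RefSeq places the genes on 9 and 15. Over all named probe sets the chromosomes were the same in 99.6%. A probe set of Atp5l on its own chromosome averaged 9.31 in EKO and 9.58 in Control arrays, a difference of -0.26, against -0.23 for the one used. For Atp5g2 the differences were -0.04 and -0.01. The alternative with such probe sets was added after seeing the data.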
